A study of Homo sapiens with 6 samples.

Results

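The genes described here encode the pyruvate dehydrogenase complex and its phosphatases, the enzymes of the tricarboxylic acid (TCA) cycle, the mitochondrial carriers of citrate, dicarboxylates and oxoglutarate, and D2HGDH, the D-2-hydroxyglutarate dehydrogenase. They were taken by symbol from a list of 32 genes. All 32 were found among the 60564 gene rows of the count table, and all 32 passed the filter on low counts that left 17006 genes for testing. The cells were A2780, an established human ovarian cancer line. RNA-seq was made of 3 libraries labelled GPT2sinc and 3 labelled GPT2si. Both groups are the same line, the labels give no dose, time or clone, and the terms si and sinc are not explained in them. GPT2 encodes the mitochondrial alanine aminotransferase, which exchanges the amino group of alanine and glutamate and so links pyruvate with oxoglutarate (alpha-ketoglutarate). The question taken from the series title is how a deficit of GPT2 bears on gene expression, here that of the cycle into which both keto acids feed.

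Pyruvate dehydrogenase turns pyruvate into acetyl-CoA inside mitochondria. Its kinases switch the complex off by phosphorylation, and its phosphatases switch it on again. Citrate synthase joins acetyl-CoA to oxaloacetate, and the following enzymes oxidise citrate by way of isocitrate, oxoglutarate, succinyl-CoA, succinate, fumarate and malate back to oxaloacetate, passing electrons to the respiratory chain. In dividing cancer cells the cycle also loses intermediates to biosynthesis and is refilled from glutamine, in part by aminotransferases.

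Total counts per library ran from 41931162 to 50882329, so that 3 counts in a library equal 0.0597 to 0.0770 CPM, the count normalised to library size with TMM factors. GPT2 stood at 235.6, 229.9 and 218.7 CPM in GPT2sinc 1 to 3 and at 93.75, 94.34 and 96.93 CPM in GPT2si 1 to 3, and it fell by 1.26 on the log2 scale (SE 0.08, adjusted p = 0.000393, edgeR quasi-likelihood test with Benjamini-Hochberg adjustment). Of the markers looked up, VIM, a mesenchymal intermediate filament gene, stood at 11890 to 13280 CPM. The epithelial keratin gene KRT8 stood at 30.95 to 42.92 CPM, whereas WT1 had no count and the ovarian lineage marker PAX8 reached at most 0.35 CPM, so the ovarian origin rests on the label. The 5 epithelial markers summed to 57.45 to 60.18 CPM in GPT2sinc and 64.42 to 80.67 CPM in GPT2si, nearly all of it KRT8 and KRT18. EPCAM, a further epithelial marker, stood at 1.70 to 2.25 CPM in GPT2sinc and 1.54 to 1.71 CPM in GPT2si. The part of these keratin levels in the results was not tested. The 3 leukocyte markers summed to at most 0.119 CPM and the 3 endothelial markers to at most 0.299 CPM, while the 3 fibroblast markers summed to 115.8 to 135.1 CPM, most of it COL1A1 at 112.1 to 131.4 CPM. In bulk RNA, fewer cells of a kind and less RNA per cell cannot be told apart. The labels do not say whether the libraries came from separate cultures, so the p-values speak only of the spread among the 6 libraries, possibly a technical one.

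None of the 32 genes passed an adjusted p of 0.05 in edgeR's quasi-likelihood test, 0 higher and 0 lower in GPT2si, against 1.42% of all genes tested (0.576% higher and 0.841% lower). That background depended on the libraries, at 0.0115%, 4.77% and 0.626% without GPT2si 1, 2 and 3 in turn and at 0.0231%, 0.00577% and 0.0287% without GPT2sinc 1, 2 and 3. At the background share of 1.42% fewer than 1 call among 32 genes is what the whole table would give, so the count says little about these genes in particular. DESeq2's Wald test likewise called 0 higher and 0 lower, with 7.73% of the genes it adjusted called (4.15% higher and 3.58% lower). Without adjustment, edgeR's p was under 0.05 for 1 higher gene, the citrate synthase gene CS, against 10.3% of all genes tested. It was under 0.05 for 6 lower genes (D2HGDH, SLC25A11, SUCLG2, DLD, OGDHL and PDHX) against 9.27%, so that 7 of 32 stand beside 19.6% of all genes in either direction. In the same 7 genes the 3 GPT2si libraries did not overlap the 3 GPT2sinc libraries, against 28.2% of all tested genes (14.9% higher and 13.2% lower). Adjusted p-values ran from 0.1499 for D2HGDH to 0.974 for FH, the fumarase gene.

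The fitted differences were small in size, and most were bounded on both sides. They ran from −0.34 to 0.28 on the log2 scale, with 15 positive and 17 negative, and their median was −0.01, the same as over all tested genes. The median absolute log2 difference was 0.13, against 0.20 over all tested genes, and the median SE was 0.10, against 0.15. In 29 of the 32 genes the 95% interval lay within a 1.5-fold difference in either direction, compared with 51.56% of all tested genes. The width of an interval depends on the SE. Neither the intervals nor the absolute differences were compared with those of genes at a like count level. The exceptions were DLD, PDP1 and D2HGDH, each with a lower bound beyond 1.5-fold. The summed level of the 32 genes was 4129, 4452 and 4569 CPM in GPT2sinc 1 to 3 and 4345, 4702 and 4162 CPM in GPT2si 1 to 3. Those ranges overlap, and the group means were 4383 ± 228 and 4403 ± 275 CPM (SD, n = 3 each).

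**Figure D1:**
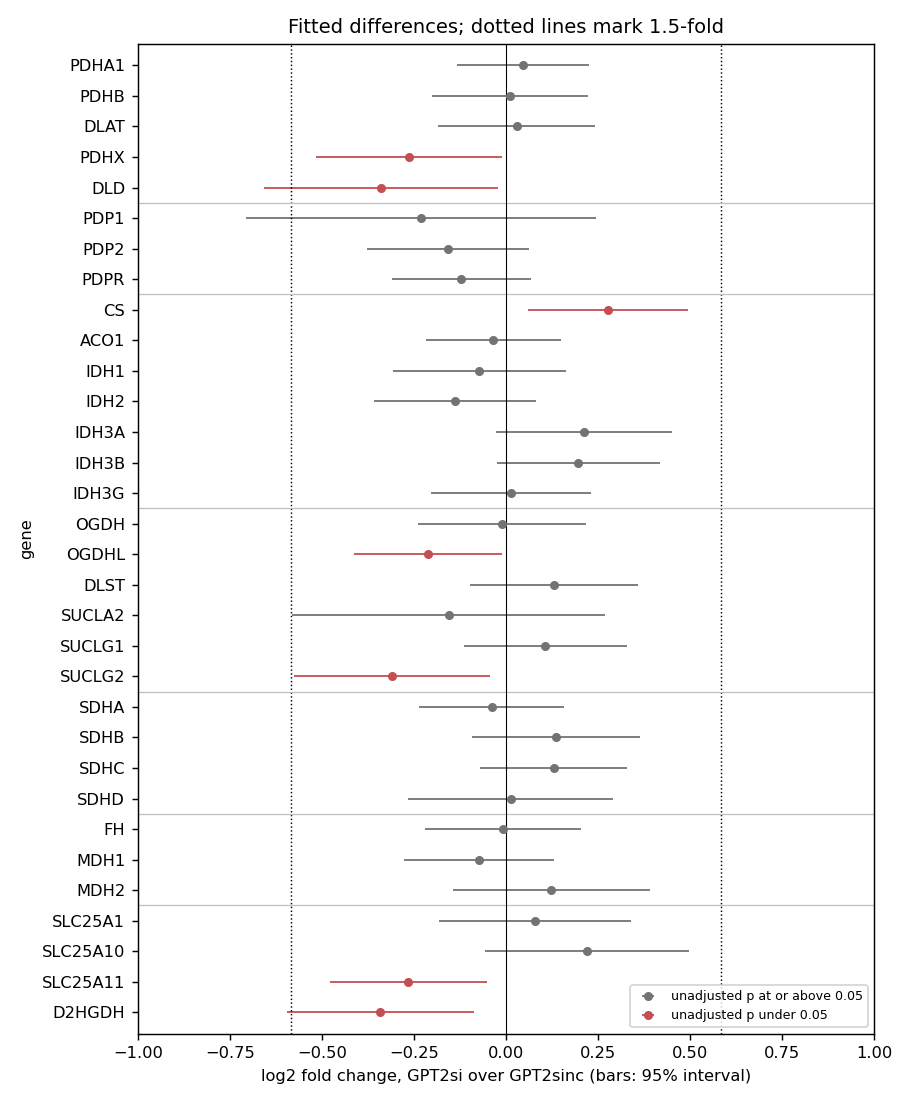
Fitted log2 fold change of GPT2si over GPT2sinc (horizontal axis) with its 95% interval for each of the 32 genes, grouped by enzyme step, with dotted lines at a 1.5-fold difference. The 7 genes in red have an unadjusted p under 0.05, and only DLD, PDP1 and D2HGDH have intervals that reach past a dotted line.

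Among the 5 genes of the pyruvate dehydrogenase complex, those of E1 and E2 differed little. The E3 enzyme and the protein that anchors it had negative differences. PDHA1, the E1 alpha subunit that carries the phosphorylated serines, stood at 133.5, 144.9 and 150.8 CPM in GPT2sinc and 149.8, 146.1 and 147.0 CPM in GPT2si. The groups overlap, and the log2 difference was 0.05 (95% interval −0.13 to 0.23). PDHB (E1 beta) and DLAT (the E2 acetyltransferase) had log2 differences of 0.01 and 0.03, with 95% intervals of −0.20 to 0.22 and −0.18 to 0.24. PDHX, the protein that anchors E3 to the E2 core, stood at 24.04, 25.36 and 24.54 CPM in GPT2sinc and 22.8, 18.2 and 20.6 CPM in GPT2si. Every GPT2si library was below every GPT2sinc library, with a log2 difference of −0.26 (SE 0.11, adjusted p = 0.239). DLD, the E3 dihydrolipoamide dehydrogenase shared with the oxoglutarate dehydrogenase complex, stood at 39.6, 36.3 and 35.0 CPM in GPT2sinc and at 29.3, 23.5 and 34.8 CPM in GPT2si. GPT2si 3 lay just under the lowest GPT2sinc value, and GPT2si 2 was the lowest by far. The log2 difference of DLD was −0.34 (SE 0.14, adjusted p = 0.231), and −0.22 without GPT2si 2.

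The 3 genes of the pyruvate dehydrogenase phosphatases all had negative differences that missed the threshold, and the groups overlapped in each. PDP1, a catalytic subunit, had the fewest counts of the 32 genes, at 5.56, 4.07 and 4.39 CPM in GPT2sinc and 4.14, 2.95 and 4.83 CPM in GPT2si. Its counts of 115 to 255 per library gave the widest interval among the 32 genes, −0.71 to 0.24 around a log2 difference of −0.23. PDP2, the other catalytic subunit, and PDPR, the regulatory subunit, had log2 differences of −0.16 (SE 0.10) and −0.12 (SE 0.08).

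At the entry to the cycle, CS was the single gene with higher values in all 3 GPT2si libraries than in any GPT2sinc library. It stood at 287.0, 321.3 and 326.5 CPM in GPT2sinc and 366.3, 421.0 and 346.1 CPM in GPT2si. The group means were 311.6 ± 21.4 and 377.8 ± 38.8 CPM (SD, n = 3 each), with GPT2si 2 the highest. The log2 difference was 0.28 (SE 0.10, 95% interval 0.06 to 0.50, adjusted p = 0.164), which did not pass, and it was 0.18 without GPT2si 2. CS lies at chr12:56271699-56300392 on the minus strand (GRCh38, GENCODE 29), and 220 of its exon bases are shared on the same strand with the gene model AC073896.1, whose reads the counting could have split.

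The isocitrate dehydrogenase genes had differences of both signs, none of which passed. The NAD-dependent enzyme of the cycle is built from IDH3A, IDH3B and IDH3G, and its alpha and beta subunits had log2 differences of 0.21 (SE 0.11, adjusted p = 0.303) and 0.20 (SE 0.10, adjusted p = 0.305), against 0.01 for gamma. IDH3A stood at 33.4, 38.2 and 34.2 CPM in GPT2sinc and 42.5, 36.9 and 43.2 CPM in GPT2si, where GPT2si 2 lay among the GPT2sinc values. IDH3B stood at 119.5, 137.3 and 134.3 CPM in GPT2sinc and 145.7, 165.9 and 136.5 CPM in GPT2si, where GPT2si 3 was just below the highest GPT2sinc library. IDH2, the mitochondrial NADP-dependent isozyme that also works in the reductive direction, stood at 772.6, 826.7 and 871.0 CPM in GPT2sinc and 727.2, 838.6 and 677.9 CPM in GPT2si. GPT2si 1 and 3 were below all GPT2sinc libraries while GPT2si 2 was within their range, and the log2 difference was −0.14 (SE 0.10). The cytosolic isozyme IDH1 and ACO1, the cytosolic aconitase that doubles as an iron regulatory protein, differed by −0.07 and −0.03.

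Of the oxoglutarate and succinyl-CoA steps, OGDHL and SUCLG2 were below GPT2sinc in every GPT2si library. OGDHL, a close relative of the E1 subunit of oxoglutarate dehydrogenase, stood at 55.4, 56.6 and 59.4 CPM in GPT2sinc and 46.9, 51.9 and 49.3 CPM in GPT2si, a log2 difference of −0.21 (SE 0.09, adjusted p = 0.236). OGDH, the E1 subunit itself, had a log2 difference of −0.01 (95% interval −0.24 to 0.22), and DLST, the E2 succinyltransferase, had 0.13 (−0.10 to 0.36). SUCLG2, the beta subunit of the GTP-forming succinyl-CoA synthetase, stood at 77.2, 73.7 and 77.0 CPM in GPT2sinc and 67.8, 50.2 and 65.8 CPM in GPT2si. The 3 GPT2sinc values are close together, and GPT2si 2 is lowest. The log2 difference of SUCLG2 was −0.31 (SE 0.12, adjusted p = 0.198), and −0.20 without GPT2si 2. SUCLA2, the ATP-forming counterpart, stood at 18.5, 16.3 and 16.5 CPM in GPT2sinc and 15.6, 10.9 and 19.5 CPM in GPT2si. GPT2si held both the lowest and the highest SUCLA2 value, and the log2 difference was −0.16 (SE 0.19). The shared alpha subunit SUCLG1 had 0.11 (SE 0.10).

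Succinate dehydrogenase, which is also complex II of the respiratory chain, overlapped between the groups in all 4 subunits. SDHB, the iron-sulfur subunit, and SDHC, a membrane anchor, had log2 differences of 0.14 (95% interval −0.09 to 0.36) and 0.13 (−0.07 to 0.33). The flavoprotein SDHA had −0.04 (−0.24 to 0.16) and the second anchor SDHD 0.01 (−0.27 to 0.29). SDHA has 3 named pseudogenes, SDHC 4 and SDHD 3, among which the counting could have split reads. Of the 32 genes, 9 have a named pseudogene, among them SUCLG2 with 2. On the same strand, 319 exon bases of SDHD are shared with the gene model AP002884.3. FH, the fumarase, and MDH1, the cytosolic malate dehydrogenase, had −0.01 (−0.22 to 0.20) and −0.07 (−0.28 to 0.13). MDH2, the mitochondrial malate dehydrogenase, stood at 338.3, 388.5 and 402.2 CPM in GPT2sinc and 383.3, 483.0 and 362.5 CPM in GPT2si. The GPT2si 2 library alone lay above the GPT2sinc range, and the log2 difference was 0.12 (SE 0.12).

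Among the carriers, SLC25A11 had lower values in GPT2si while SLC25A1 and SLC25A10 had positive differences. SLC25A11 exchanges oxoglutarate for malate across the inner membrane as a part of the malate-aspartate shuttle. It stood at 118.9, 124.8 and 127.5 CPM in GPT2sinc and 99.2, 115.3 and 94.3 CPM in GPT2si, with no overlap. Its log2 difference was −0.27 (SE 0.09, 95% interval −0.48 to −0.05, adjusted p = 0.172). SLC25A10, the dicarboxylate carrier, stood at 63.1, 67.2 and 70.2 CPM in GPT2sinc and 71.5, 93.4 and 68.7 CPM in GPT2si, a log2 difference of 0.22 (SE 0.12, adjusted p = 0.352). GPT2si 2 was far the highest, and without it the difference was 0.06. On the same strand, 1221 of its exon bases are shared with the gene model AC139530.2. SLC25A1, the citrate carrier, had a log2 difference of 0.08 (SE 0.12).

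D2HGDH, which returns D-2-hydroxyglutarate to oxoglutarate, had the smallest p of the 32 genes. It stood at 21.1, 18.1 and 20.5 CPM in GPT2sinc and 15.2, 16.6 and 15.3 CPM in GPT2si. The lowest GPT2sinc library was above the highest GPT2si library, and the means were 19.9 ± 1.59 and 15.7 ± 0.80 CPM (SD, n = 3 each). The log2 difference was −0.34 (SE 0.11, 95% interval −0.60 to −0.09, adjusted p = 0.1499). D2HGDH lies at chr2:241734579-241768816 on the plus strand. It shares 367 and 609 exon bases with the antisense gene models AC114730.1 and AC114730.2, and SLC25A11, at chr17:4937130-4940251 on the minus strand, shares 244 with RNF167 on the opposite strand. Of the 32 genes, 16 share exon bases with a gene model on the opposite strand, PDHX and DLD among them. Without a stated strand setting of the counting, reads of such pairs may not have been told apart.

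**Figure D2:**
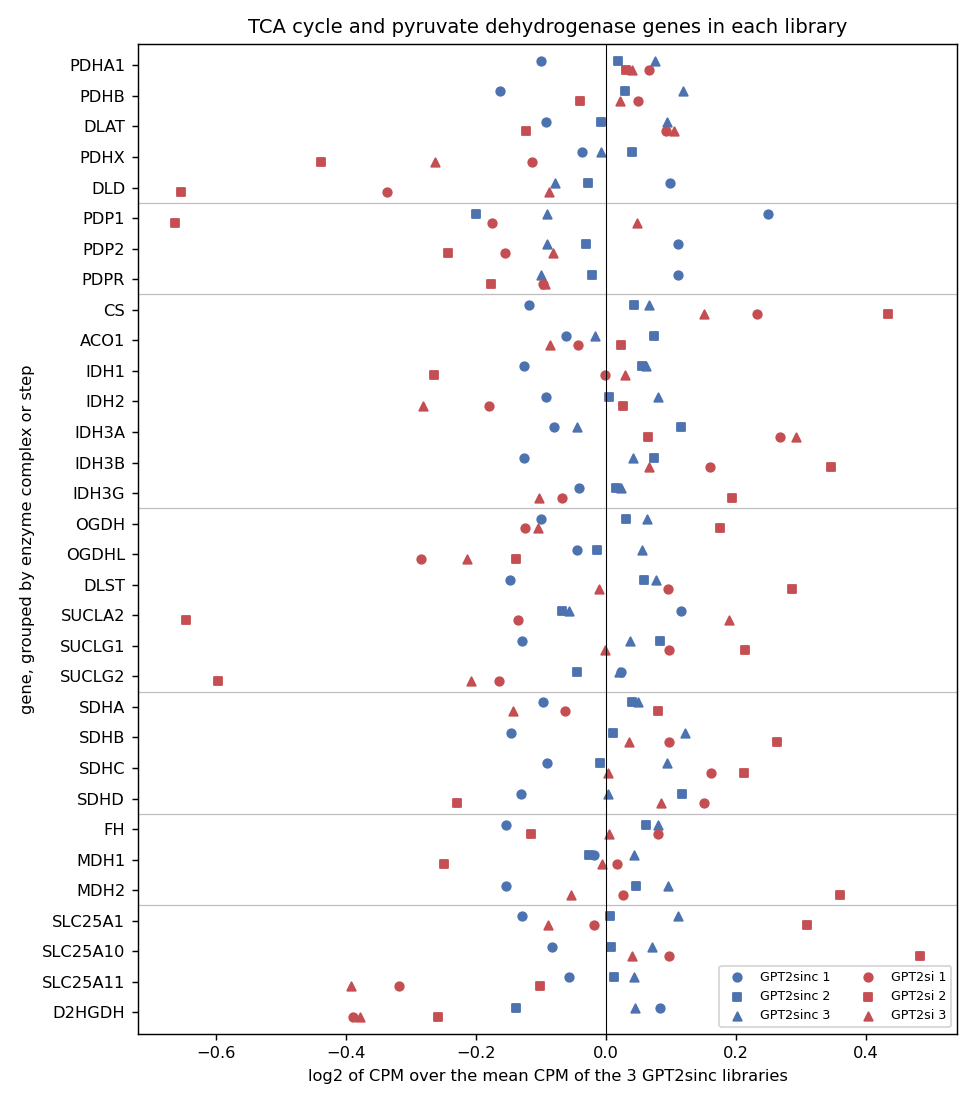
Log2 of each library's CPM over the mean CPM of the 3 GPT2sinc libraries (horizontal axis) for each of the 32 genes, with GPT2sinc in blue and GPT2si in red and the replicates as circle, square and triangle. CS is the only gene with all red symbols to the right of the blue ones, 6 genes have all red symbols to the left, and the GPT2si 2 squares are often at an end of the row.

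Promoter windows of 300 bases, from 250 before to 50 after the annotated start (RefSeq, GRCh38.p14), were found for 29 of the 32 genes. Their median GC content was 67.3%, against 58.3% for all promoters in the table. They were searched on both strands for GCGCA, any base, then GCGC, the letters of the site of NRF1 (nuclear respiratory factor 1), a transcription factor known for binding genes of mitochondrial proteins. The letters occurred in 7 of 29 windows (24.1%), against 1716 of 27305 (6.28%) over all promoters. The windows of the NRF1-lettered genes D2HGDH and SLC25A11 are shown because they had the smallest p-values among the lower genes. SDHA is shown because it had 4 matches and a difference near 0. Capitals mark the letters, on the strand of the gene or as their reverse complement. The windows lie at chr2:241734380-241734679 (plus strand) for D2HGDH, chr17:4939997-4940296 (minus strand) for SLC25A11 and chr5:218070-218369 (plus strand) for SDHA.
D2HGDH: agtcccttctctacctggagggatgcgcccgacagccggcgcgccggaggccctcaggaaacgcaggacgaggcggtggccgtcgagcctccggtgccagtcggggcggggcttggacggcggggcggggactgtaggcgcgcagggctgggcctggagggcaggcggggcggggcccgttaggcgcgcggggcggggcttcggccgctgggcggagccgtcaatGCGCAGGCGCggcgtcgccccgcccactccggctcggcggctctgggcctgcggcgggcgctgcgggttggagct
SLC25A11: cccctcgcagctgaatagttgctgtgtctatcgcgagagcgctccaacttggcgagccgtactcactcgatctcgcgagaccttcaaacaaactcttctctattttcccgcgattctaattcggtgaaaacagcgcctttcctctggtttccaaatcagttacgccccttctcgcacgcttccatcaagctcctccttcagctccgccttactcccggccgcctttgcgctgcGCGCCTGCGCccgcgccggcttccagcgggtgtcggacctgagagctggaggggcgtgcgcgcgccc
SDHA: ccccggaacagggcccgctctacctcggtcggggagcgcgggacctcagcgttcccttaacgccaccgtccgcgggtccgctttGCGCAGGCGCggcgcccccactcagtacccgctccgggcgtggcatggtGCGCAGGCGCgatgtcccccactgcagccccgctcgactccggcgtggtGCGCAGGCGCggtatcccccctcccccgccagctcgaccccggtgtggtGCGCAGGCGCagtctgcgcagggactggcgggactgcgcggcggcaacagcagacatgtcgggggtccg
Relative to the annotated start, the single match lies at −25 to −16 in D2HGDH and at −17 to −8 in SLC25A11. The 4 SDHA matches begin at −166, −117, −68 and −19. The 7 genes with a match (IDH3A, IDH3G, SUCLA2, SDHA, SDHD, SLC25A11 and D2HGDH) had log2 differences from −0.34 to 0.21, with a median of −0.04. They thus include genes with positive and with negative differences. The core letters ACGTG of the hypoxia response element, again on both strands, occurred in 6 of 29 windows (20.7%) and in 21.6% of all promoters, and the 6 genes (PDHB, DLAT, PDP2, IDH1, IDH3G and OGDHL) had log2 differences from −0.21 to 0.03. A match is a run of letters and not a measured site.

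Levels could be compared between genes per length, as CPM per kilobase of the annotated principal transcript. The places of some genes are uncertain, since coding models much shorter than the principal ones are also annotated. The principal and shortest coding models have 13566 and 369 bases for SDHC and 4128 and 114 for IDH3A. They have 2838 and 252 bases for DLST, 3755 and 421 for DLD, 8239 and 1207 for PDPR, and 3310 and 709 for PDHA1. In GPT2sinc IDH2 was the most abundant at 305.7 ± 18.3 CPM per kilobase, followed by MDH2 at 170.4 ± 15.2 and SDHA at 133.3 ± 7.46 (SD, n = 3 each). MDH1 at 109.8 ± 2.90 and CS at 104.7 ± 7.21 did not differ beyond their spread. The E3 gene DLD (9.84 ± 0.63), PDHX (10.3 ± 0.28) and DLAT (20.1 ± 1.30) were lower per length than the E1 genes PDHA1 (43.2 ± 2.67) and PDHB (54.2 ± 5.30). The IDH3 subunits IDH3B (84.4 ± 6.17) and IDH3G (67.3 ± 1.66) lay near the upper end of the order. The third subunit, IDH3A (8.54 ± 0.63), lay near the lower end, a place that depends on its transcript model. PDP1 was lowest, at 1.83 ± 0.31. In GPT2si IDH2 was again first, at 277.6 ± 30.6, and PDP1 last, at 1.55 ± 0.37. The lengths assume 1 transcript model per gene, and isoform use was not measured.

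**Figure D3:**
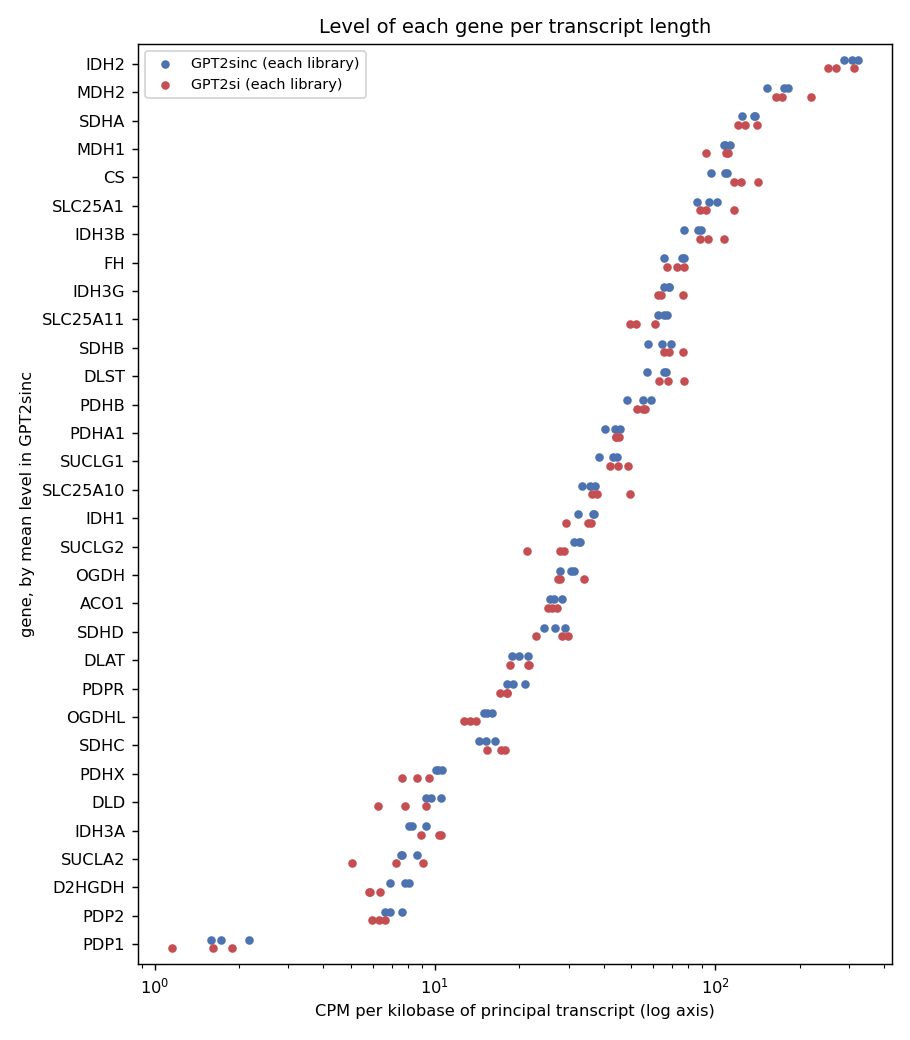
CPM per kilobase of principal transcript (horizontal log axis) in each of the 6 libraries for the 32 genes, ordered by the mean of GPT2sinc (blue) and with GPT2si in red. IDH2 is at the top with 305.7 and PDP1 at the bottom with 1.83 CPM per kilobase in GPT2sinc. The places of SDHC, IDH3A and some other genes depend on the transcript model. The order of the genes spans a far wider range than any difference between the groups.

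For 5 pairs of related genes the log2 ratio of counts within a library was tested between the groups by exact permutation (two-sided), for which 0.1 is the smallest possible p with 3 against 3 libraries. OGDHL to OGDH was −1.08, −1.18 and −1.14 in GPT2sinc and −1.30, −1.45 and −1.25 in GPT2si. These values do not overlap, and they differ by −0.20 (exact p = 0.1, adjusted over the 5 pairs 0.5). Per length there were 0.514 ± 0.0179 OGDHL to 1 OGDH in GPT2sinc and 0.449 ± 0.0325 in GPT2si (SD, n = 3 each). The MDH2 to MDH1 ratio differed by 0.19 (exact p = 0.6, adjusted 0.75), and GPT2si 2 at 1.66 stood apart from the other libraries at 0.92 to 1.13. The ratios of SUCLA2 to SUCLG2, IDH2 to IDH1 and PDP1 to PDP2 differed by 0.13, −0.07 and −0.09, with exact p of 0.6, 0.8 and 0.6 and adjusted values of 0.75, 0.8 and 0.75.

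The spread of the 32 genes was not equal over the libraries. GPT2si 2 held the highest value in 12 genes and the lowest in 11, and GPT2sinc 1 held the lowest in 13. Measured as the log2 deviation from the mean of the 6 libraries, the median absolute deviation of the genes was 0.187 in GPT2si 2 and 0.163 in GPT2sinc 1, against 0.052 to 0.078 in the other libraries. In GPT2si 2 the deviation went with the GC content of the transcripts, with a Spearman correlation across the 32 genes of 0.71. The sign was opposite in GPT2si 3, at −0.70, and in GPT2si 1, at −0.42. In GPT2sinc 1 to 3 the correlations were −0.22, −0.27 and −0.14. Genes are not independent replicates, and the points share a library. Over 16825 tested genes with a GC value the correlations were 0.52 in GPT2si 2, −0.39 in GPT2si 3 and −0.17 in GPT2si 1. In GPT2sinc 1 to 3 the correlations over these genes were −0.28, −0.07 and 0.04. The signs were the same as in the 32 genes except in GPT2sinc 3. The 8 genes of lowest GC content (DLD, SUCLA2, SUCLG2, IDH1, PDHX, DLAT, FH and MDH1) had a median deviation of −0.26 in GPT2si 2, and 7 of these 8 had a negative log2 difference, against 5 of the 16 of middle and 5 of the 8 of highest GC content. The 8 of highest GC content, among them IDH2, SLC25A11, SLC25A10 and D2HGDH, had a median deviation of 0.14 in GPT2si 2. It was −0.11 in GPT2si 1 and in GPT2si 3. Between GC content and the log2 difference itself the Spearman correlation was 0.22 across the 32 genes and 0.19 across all genes with a GC value.

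**Figure D4:**
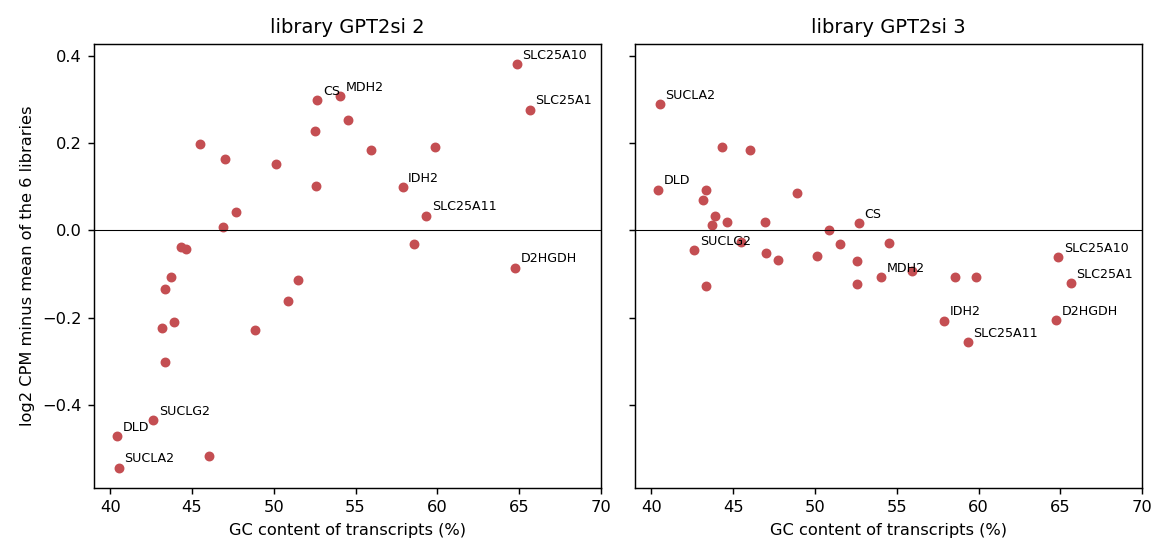
Log2 deviation of each of the 32 genes from its mean over the 6 libraries (vertical axis) against the GC content of its transcripts in percent (horizontal axis), for GPT2si 2 on the left and GPT2si 3 on the right. The points climb with GC content in GPT2si 2 (Spearman 0.71) and descend in GPT2si 3 (−0.70).

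SLC25A11 was the one gene of the 32 that passed under any alternative. With offsets for GC content and length its log2 difference was −0.29 (adjusted p = 0.0154, edgeR quasi-likelihood test), where 10.6% of all genes tested were called (6.68% higher and 3.89% lower). Without GPT2si 2 it was −0.37 (adjusted p = 0.0180), where 4.77% were called. Over all alternatives its adjusted p ran from 0.0154 to 0.423.

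Around the cycle, 28 genes of its regulation, assembly and side entries were looked up, of which 26 were tested. PDK4 had at most 2 counts and ME3 at most 4 in any library. In edgeR's test 0 passed in either direction, and the unadjusted p was under 0.05 for 3 higher genes and 3 lower ones, 6 of 26 beside the 19.6% of all genes. The median log2 difference was −0.02. DESeq2 called 2 higher (SDHAF2 and SLC25A13) and 2 lower (PDK1 and PDK3), beside 4.15% and 3.58% of the genes it adjusted. PDK1, a kinase that switches pyruvate dehydrogenase off, stood at 145.3, 129.4 and 124.0 CPM in GPT2sinc and 86.0, 47.8 and 87.3 CPM in GPT2si. All GPT2si libraries were well below GPT2sinc, and the log2 difference was −0.85 (SE 0.20, adjusted p = 0.0711 with edgeR and 0.000625 with DESeq2). PDK3, another of these kinases, stood at 80.8, 63.9 and 64.9 CPM in GPT2sinc and 46.2, 33.6 and 49.5 CPM in GPT2si, with a log2 difference of −0.70 (SE 0.15, adjusted p = 0.0620 with edgeR and 0.00077 with DESeq2). Both passed edgeR's test without GPT2si 2, PDK1 at −0.63 (adjusted p = 0.00872) and PDK3 at −0.56 (adjusted p = 0.0325), and both passed with the offsets for GC content and length. Without any other single library neither passed (adjusted p of 0.0550 to 0.272 for PDK1 and 0.0518 to 0.254 for PDK3), nor did they without the low-count filter (0.1505 and 0.128). PDK2 differed by 0.16 (adjusted p = 0.454). The differences of PDK1 and PDK3 were larger in size than that of any gene of the complex they act on or of its phosphatases, and that contrast of sizes was not tested.

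The assembly factors of succinate dehydrogenase had differences of both signs, with SDHAF2 higher and SDHAF4 lower in every GPT2si library. SDHAF2, which attaches the flavin to SDHA, stood at 27.7, 32.1 and 31.6 CPM in GPT2sinc and 40.5, 41.1 and 37.0 CPM in GPT2si, with a log2 difference of 0.37 (SE 0.10, adjusted p = 0.106 with edgeR and 0.0261 with DESeq2). SDHAF4, which binds flavinylated SDHA, stood at 12.4, 12.4 and 13.1 CPM in GPT2sinc and 9.57, 10.3 and 8.03 CPM in GPT2si, with −0.44 (SE 0.13, adjusted p = 0.127 with edgeR and 0.0518 with DESeq2). Over the alternatives the adjusted p of SDHAF4 ran from 0.0445, without GPT2si 2, to 0.363. SDHAF1 and SDHAF3 differed by 0.00 and −0.03. SLC25A13, an aspartate-glutamate carrier that works beside SLC25A11 in the malate-aspartate shuttle, stood at 47.1, 55.7 and 54.7 CPM in GPT2sinc and 65.8, 65.9 and 68.3 CPM in GPT2si. It thus lay higher in every GPT2si library, with a log2 difference of 0.35 (SE 0.10, adjusted p = 0.107 with edgeR and 0.0270 with DESeq2). In edgeR SLC25A13 passed with the offsets (adjusted p = 0.0293) and without GPT2si 2 (0.04995) but in no other alternative (up to 0.394), and SDHAF2 passed with the offsets alone (0.0313, up to 0.392 elsewhere). GOT1, the cytosolic aspartate aminotransferase of the same shuttle, differed by 0.22 (SE 0.10, adjusted p = 0.250). The mitochondrial pyruvate carrier genes MPC1 and MPC2 differed by 0.03 and 0.02.

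**Figure D5:**
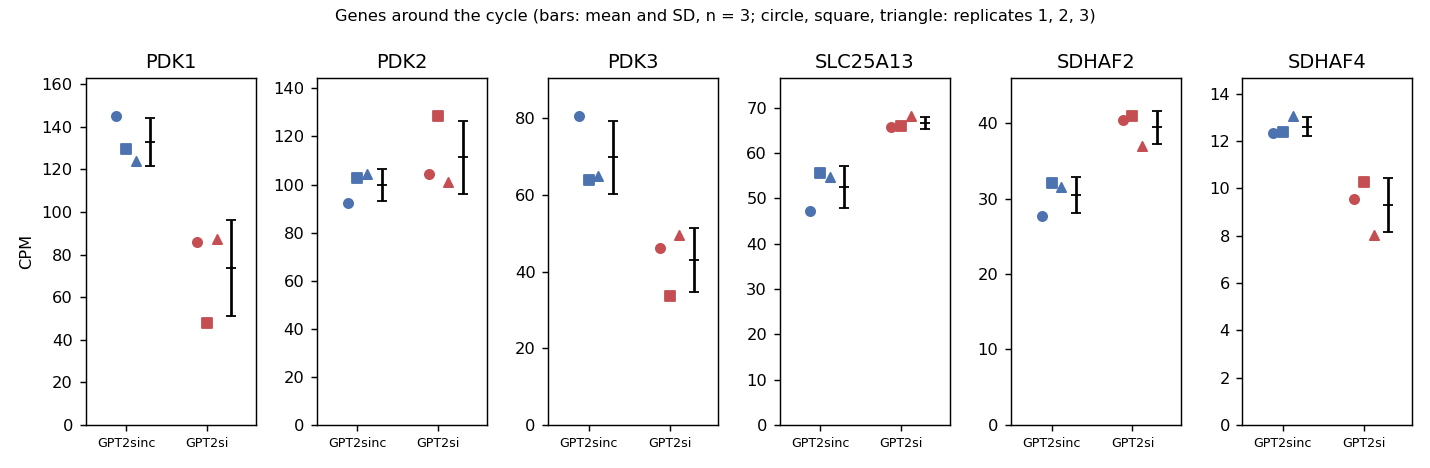
CPM (vertical axis, from 0) of 6 genes around the cycle in each library, with the mean and SD of each group (n = 3) beside the points. PDK1 and PDK3 are lower and SLC25A13 and SDHAF2 higher in all 3 GPT2si libraries, while PDK2 overlaps between the groups.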

How the data were processed

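RNA-seq libraries of A2780 cells, 3 labelled GPT2sinc and 3 labelled GPT2si, were grouped by their titles. Per the labels' protocols, poly(A) RNA was fragmented and copied with dUTP in the second strand. The authors deposited raw counts, whole numbers for each Ensembl gene, and 0 columns were left unmatched. CASAVA and StringTie are named, without role, per the submitters' processing notes. Aligner, counter, strand setting, build and annotation were among the items not given in the sources used here. Depth was 41931162 to 50882329 counts per library. Without molecular identifiers PCR reads are no independent molecules, so floors cover counting error only.

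All genes kept by filterByExpr were fitted with edgeR 4.0.16 (R 4.3.3, glmQLFit and glmQLFTest, TMM factors, group as the only term) and adjusted by Benjamini-Hochberg over 17006 genes, with a threshold of 0.05. SE came from the F statistic and 95% intervals from the moderated degrees of freedom. The script was tested on simulated data with changes set in genes drawn from all those tested. It recovered 33.8% of 1.5-fold, 63.2% of 2-fold and 90.9% of 4-fold changes. Of its calls, 7.18% were false. Alternatives were DESeq2 1.42.0, its size factors in edgeR, no filter, a replicate block and leaving out each library. Offsets for GC content and length, from a loess fit per library, were chosen after seeing the data and cover 16825 genes. The main fit did not use the replicate numbers as pairs, and the labels do not say whether they mark pairs. Positions, lengths and GC content come from GENCODE 29 on GRCh38, and promoters from RefSeq on GRCh38.p14 (no entry was matched for PDP1, OGDH and SDHC).

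The genes named are GPT2, every one of the 32 genes, and of the 28 neighbouring genes the PDK, MPC and SDHAF genes and those with an unadjusted p under 0.05. ME3, a neighbouring gene outside that rule, was named after its counts were seen. The members and lists were chosen with earlier results of these data known.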

Additional observations from a re-analysis of the deposited data

How the results depend on the processing

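The 32 genes gave 0 calls higher and 0 lower in edgeR with DESeq2's size factors or without the low-count filter, and 0 and 0 with DESeq2's Wald test. With offsets for GC content and length, added after seeing the data, 1 was lower, SLC25A11. Leaving out 1 library gave 0 to 1 lower (1 without GPT2si 2, again SLC25A11) and 0 higher. Over all genes, higher and lower calls numbered 98 and 143, against 61 and 112 with DESeq2's size factors, 17 and 27 without the filter, 569 and 491 with DESeq2, and 1124 and 654 with the offsets. GPT2 passed in each alternative, at −1.29 to −1.24 with 1 library left out. Of the 32 genes, 19 kept the sign of their difference in every alternative and 13 did not. With the offsets the sign reversed for ACO1 (0.0616), IDH1 (0.0089), IDH3G (−0.0171), FH (0.0485), SDHAF1 (−0.0049) and SDHAF3 (0.10). Others of the 32 genes kept their sign but moved by over 1.5 times with the offsets. Nearer to 0 were DLD (−0.23), SUCLG2 (−0.20), SUCLA2 (−0.0478), MDH1 (−0.0008) and OGDH (−0.0003). Farther from 0 were DLAT (0.15), PDHB (0.0995), PDHA1 (0.0858) and SDHD (0.0228). Leaving out 1 library gave log2 differences of −0.0025 to 0.0862 for PDHA1, −0.064 to 0.0758 for PDHB, −0.0164 to 0.085 for DLAT, −0.0778 to 0.0056 for ACO1, −0.13 to 0.0014 for IDH1, −0.0984 to 0.0701 for IDH3G, −0.13 to 0.04 for OGDH, −0.36 to 0.0207 for SUCLA2, −0.12 to 0.0123 for SDHA, −0.0695 to 0.11 for SDHD, −0.0802 to 0.0354 for FH, −0.0259 to 0.20 for MDH2 and −0.0656 to 0.16 for SLC25A1. It gave −0.13 to 0.23 for MPC1, −0.023 to 0.0695 for MPC2, −0.13 to 0.0658 for SDHAF1 and −0.11 to 0.10 for SDHAF3. Without GPT2si 2, differences that kept their sign moved by over 1.5 times to −0.0762 for PDP1, −0.24 for IDH2, 0.10 for IDH3B, 0.0318 for DLST, 0.0359 for SUCLG1, 0.0546 for SDHB, 0.0723 for SDHC, −0.008 for MDH1, 0.18 for CS, −0.22 for DLD, −0.20 for SUCLG2 and 0.0562 for SLC25A10. Such moves came without GPT2sinc 1 for PDP1 (−0.0904), PDP2 (−0.0993), PDPR (−0.0624), DLST (0.0627), SUCLG1 (0.0459) and SDHB (0.0683), without GPT2si 3 for PDP1 (−0.39), IDH2 (−0.0714) and DLST (0.20), and without GPT2si 1 for MDH1 (−0.13). The ratio differences ran from −0.0078 to 0.22 for SUCLA2 to SUCLG2, −0.25 to 0.055 for IDH2 to IDH1, −0.0157 to 0.31 for MDH2 to MDH1, −0.21 to 0.0643 for PDP1 to PDP2 and −0.24 to −0.14 for OGDHL to OGDH. The cause of these changes was not tested.

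With the replicate number as a block, 0 of the 32 genes were called higher and 0 lower, and over all genes 252 and 306 were called. SDHAF1 reversed to −0.0051, and PDK1 and PDK3 passed at −0.90 (edgeR adjusted p = 0.00239) and −0.71 (adjusted p = 0.00605). Deviations of same-numbered libraries correlated at 0.0855, 0.114 and −0.187, and not every library correlated best with its own number. The labels do not say whether the numbers mark pairs. These correlations cannot decide it, since in some libraries the deviations also went with GC content.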
